A study of Mus musculus with 2 samples.

Results

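Mir193b, Mir365-1, Mir365-2 and Mir455 are the microRNA (miRNA) genes best known from the choice between a brown fat and a muscle fate, and their levels were taken here from calf muscle. The members were the rows of the count files whose GENCODE M21 symbols are these names, with the sense counts used, which gave 4 of 2202 miRNA genes. MicroRNA-seq, which sequences short RNAs and counts reads on annotated miRNA genes, was run on gastrocnemius of adult female mice aged 18 to 20 months. The mice were of the F1 hybrid strain B6CASTF1/J, and the labels give no treatment or altered allele. The 2 libraries form 1 group, numbered as biological replicates 1 and 2. They carry 1 shared donor entry and separate tissue sample entries, so whether they come from separate animals is not settled and their differences may be technical.

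A miRNA is cut from a hairpin precursor as a short single strand from either the 5′ or the 3′ arm, and its seed, bases 2 to 8, does most of the pairing with target messenger RNAs. Brown fat cells burn fuel to make heat, and many of them arise from precursors that can also form skeletal muscle. The Mir193b and Mir365 cluster is known to favour brown fat differentiation, in part by repressing the transcriptional corepressor Runx1t1, and its forced expression can turn muscle precursors toward the brown fat fate. Mir455 is induced by the growth factor BMP7 and is known to act in the same direction on Runx1t1, Necdin and the hypoxia factor inhibitor Hif1an. Mir133, a miRNA of muscle, opposes this fate by repressing Prdm16, the regulator that directs precursors toward brown fat.

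The 7 mature sequences of the 4 genes, from RefSeq on GRCm38.p6, are shown because they decide which reads can be counted on which gene. They are written 5′ to 3′ with the seed in capitals. Mir193a, which is no member, is shown for its shared 3′ arm seed.
miR-193b-3p: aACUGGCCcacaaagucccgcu
miR-193b-5p: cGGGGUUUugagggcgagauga
miR-193a-3p: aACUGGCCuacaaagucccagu
miR-365-3p: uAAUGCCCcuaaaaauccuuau
miR-365-1-5p: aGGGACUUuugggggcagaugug
miR-365-2-5p: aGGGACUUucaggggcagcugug
miR-455-5p: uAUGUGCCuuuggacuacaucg
miR-455-3p: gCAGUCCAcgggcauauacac

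The sequences fall into distinct groups by seed. miR-193b-3p and miR-193a-3p share their seed and differ at 3 of 22 bases, C9U, G20A and C21G, where the base of miR-193b-3p stands first and positions count from 1 at the 5′ end. miR-365-3p is the same molecule from Mir365-1 and Mir365-2, so no read of it alone can be placed on either gene. Their 5′ arms share a seed and differ at 3 of 23 bases, U10C, G11A and A19C, with the base of Mir365-1 first. miR-455-3p and miR-193b-5p share their seeds with no other miRNA in the RefSeq table. miR-455-5p shares its seed with Mir5129, which had 1 count in replicate 1 and 3 in replicate 2.

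The hairpins of the Mir365 genes show how far that identity reaches, with the longest run common to both in capitals.
Mir365-1: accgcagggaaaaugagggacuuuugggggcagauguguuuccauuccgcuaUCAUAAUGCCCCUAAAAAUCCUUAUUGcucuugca
Mir365-2: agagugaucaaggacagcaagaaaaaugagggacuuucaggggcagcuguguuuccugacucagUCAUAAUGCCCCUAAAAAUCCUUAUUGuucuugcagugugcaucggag

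The run is 27 bases long and holds all 22 bases of miR-365-3p, with 3 bases before it and 2 after it. Reads that lie within the run map to both genes, and multimapping reads enter no gene count in these files. The counts of Mir365-1 and Mir365-2 are therefore lower bounds and leave out the mature miR-365-3p of ordinary length. The longest run shared with any other annotated hairpin was 14 bases for Mir193b, with Mir1941, and 11 bases for Mir455, with Mir7001.

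The genes lie at 3 places in the genome (mm10, all on the plus strand). Mir193b (ENSMUSG00000076972.2, chr16:13449523-13449601) and Mir365-1 (ENSMUSG00000065449.1, chr16:13453840-13453926) are separated by 4238 bases, and both lie opposite an intron of the antisense RNA gene Gm15738. Mir365-2 (ENSMUSG00000065489.1, chr11:79726400-79726511) overlaps no other annotated gene and lies 14365 bases from Mir193a (chr11:79711969-79712034). Mir455 (ENSMUSG00000070102.1, chr4:63256851-63256932) lies in an intron of Col27a1, a collagen gene, on the same strand. Mir193b and Mir365-1 are therefore a neighbouring pair on chromosome 16, with a second such pair, Mir193a and Mir365-2, on chromosome 11.

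Replicate 1 held 865419 gene counts and replicate 2 held 2177048, which is 2.52 times as many. A single count stood for 1.16 and 0.459 CPM (counts per 1000000 gene counts). Multimapping reads made up 80.7% and 71.0% of all reads. The skeletal muscle markers (Mir1a-1, Mir1a-2, Mir133a-1, Mir133a-2, Mir133b and Mir206) all had counts in both libraries and summed to 40743 and 103501 CPM, nearly all of it Mir206 (40388 and 103232 CPM). Mir1a-2 went the other way, at 270 and 162 CPM. These sums hold uniquely mapped counts only, so genes in copies, such as those of Mir1a, Mir133a and Mir199a, could stand higher. The part of Mir206 in the sum therefore does not give its part among the mature miRNAs, nor does Mir1a-2 give the direction of its miRNA. Of markers of other cell types, the summed levels were 75404 and 37985 CPM for smooth muscle, 47279 and 52968 CPM for endothelium, 3619 and 4085 CPM for leukocytes, and 633 and 1383 CPM for fibroblasts. Single markers did not always follow these sums: Mir142 stood at 246 and 96.0 CPM and Mir223 at 278 and 123 CPM while Mir155 stood at 1432 and 2120 CPM. The fibroblast sum was mostly Mir214, at 564 and 1335 CPM, while Mir199b stood at 50.8 and 41.8 CPM. Slow fibre markers summed to 181 and 956 CPM, erythroid to 230 and 316 CPM, epithelial to 23.1 and 113 CPM and liver to 10.4 and 95.1 CPM. Mir203, also known from epithelium but outside that marker list, went the other way at 318 and 130 CPM. The epithelial sum therefore does not give a direction for epithelial miRNAs as a whole. No miRNA was taken as a marker of brown fat cells. In bulk tissue, fewer cells of a type and less RNA per cell cannot be told apart.

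Mir193b had the most counts of the 4 genes in both libraries, where those of the Mir365 genes are lower bounds. It had 1378 counts in replicate 1, or 1592 CPM (exact Poisson interval 1509 to 1679), and 3977 counts in replicate 2, or 1827 CPM (1770 to 1884). Its mean was 1709.5 ± 166 CPM (SD, n = 2), and it ranked 45th and 46th of 2202 miRNA genes, of which only 456 and 572 had any count. Ranks here are by uniquely mapped counts, so miRNAs whose gene copies share reads could stand higher. The intervals do not overlap, with replicate 2 the higher, but the levels are within 1.15-fold of each other. Mir193b made up 82.3% of the counts of the 4 genes in replicate 1 and 79.6% in replicate 2. All intervals here are at 95% and reflect counting error alone, with each read taken as independent. The reads carry no molecular identifiers and can repeat the same molecule, so the intervals can be too narrow even for that error.

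Mir455 came next. It had 266 counts, or 307 CPM (272 to 347), in replicate 1 and 941 counts, or 432 CPM (405 to 461), in replicate 2. Its mean was 369.8 ± 88.3 CPM (SD, n = 2), at rank 93 in replicate 1 and 87 in replicate 2. Replicate 2 was again the higher, with intervals that do not overlap. Mir140, a miRNA of cartilage as Mir455 is also known to be, had 5019.5 CPM in the first library and 1353 CPM in the other, so it differed the other way. Its part in the level of Mir455 was not tested.

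The Mir365 genes were counted at low levels only. Mir365-2 had 27 counts, or 31.2 CPM (20.6 to 45.4), in replicate 1 and 56 counts, or 25.7 CPM (19.4 to 33.4), in replicate 2, with a mean of 28.5 ± 3.87 CPM (SD, n = 2). Mir365-1 had 4 counts, or 4.62 CPM (1.26 to 11.8), in replicate 1 and 22 counts, or 10.1 CPM (6.33 to 15.3), in replicate 2, with a mean of 7.36 ± 3.88 CPM (SD, n = 2). For each gene the intervals of the libraries overlap, and the exact test of the ratio given below detected no difference at this depth. In replicate 1, Mir365-1 lay near the 3.47 CPM that a count of 0 would still allow.

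**Figure D1:**
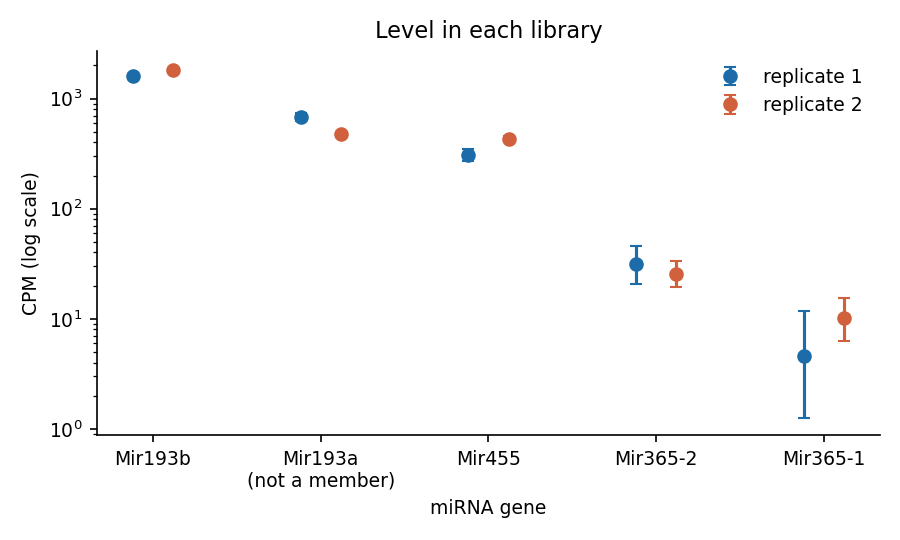
The plot gives the level of each gene in CPM on a log axis for replicate 1 (blue) and replicate 2 (orange), with bars for the exact 95% Poisson interval. Mir193b stands near 1592 and 1827 CPM, Mir193a (no member) and Mir455 lie below it, and Mir365-2 and Mir365-1 lie lowest, with the widest bars at 27 and 4 counts in replicate 1.

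The order Mir193b, Mir455, Mir365-2, Mir365-1 held in both libraries. Mir193b exceeded Mir455 by 5.18 to 1 in replicate 1 (exact interval from the Clopper-Pearson bounds, 4.54 to 5.93) and 4.23 to 1 in replicate 2 (3.94 to 4.54). Mir455 exceeded Mir365-2 by 9.85 to 1 (6.62 to 15.2) and 16.8 to 1 (12.8 to 22.4). Mir365-2 exceeded Mir365-1 by 6.75 to 1 (2.35 to 26.5) and 2.55 to 1 (1.53 to 4.38). Every one of these intervals lies above 1, so neighbours in the order differ beyond the counting error of independent reads in each library. The order itself was taken from the mean CPM of these same libraries, so its direction was not set beforehand. No length scaling was applied, as a miRNA is read whole. The places of the Mir365 genes rest on lower bounds.

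All 4 genes together held 1675 counts in replicate 1, or 0.194% of gene counts (Clopper-Pearson bounds, exact, 0.184 to 0.203), and 4996 in replicate 2, or 0.229% (0.223 to 0.236). The mean share was 0.212% ± 0.0254 (SD, n = 2). Antisense counts were 0 at each of the 4 genes in both libraries, and their unstranded counts equal the sense counts.

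None of the 4 genes was called different between the libraries. Counts were compared by an exact conditional binomial test (two-sided), given the library totals, and p-values were adjusted by Benjamini-Hochberg over the 305 genes that averaged 10 counts or more. A call needed both a 2-fold ratio, either way, and an adjusted p below 0.05. All 4 genes passed the filter, Mir365-1 with a mean of 13 counts that rests on 22 in replicate 2 against 4 in replicate 1. The filter uses raw counts, so the deeper replicate 2 weighs more in it. This can raise the share of tested genes called higher in replicate 2 and the median ratio. By this rule 33.8% of the tested genes were called, against 0 of the 4. Such a test sets one library against another, not one condition or animal against another. An unadjusted p under 0.05 was reached by 2 of the 4, Mir193b and Mir455. The adjusted p alone, without the ratio threshold, marked 2 of the 4, the same pair, beside 67.9% of tested genes. With edgeR's TMM factors 0 of the 4 were called, beside 32.1% of tested genes, and with DESeq2 size factors 0 of the 4, beside 31.8%.

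Mir193b was 1.15-fold higher in replicate 2 with library totals (exact interval 1.08 to 1.22, adjusted p = 2.10e-05 by the exact binomial test), so it was small beside the 2-fold that a call needs. The log2 ratio was 0.20 and the median over the tested genes 0.43, so relative to that median Mir193b stood at -0.24. The direction depended on the scaling: with TMM factors, which lower every log2 ratio by 0.28, it was -0.08, and with DESeq2 size factors, which lower it by 0.42, it was -0.22. Of the tested genes, 39.7% had a lower ratio than Mir193b.

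Mir455 was 1.41-fold higher in replicate 2 (1.23 to 1.62, adjusted p = 1.25e-06 by the exact binomial test). Its log2 ratio was 0.49, or 0.06 relative to the median, and 53.4% of tested genes had a lower ratio. It stood at 0.21 with TMM factors and 0.07 with DESeq2 size factors, where the adjusted p of the exact test was 0.0590 and 0.573. Mir455 thus had the same sign under these scalings and lay near the middle of the tested genes.

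Mir365-1 had a ratio of 2.19 toward replicate 2, with an exact interval from 0.743 to 8.73 (adjusted p = 0.244 by the exact binomial test). Mir365-2 was the only member lower in replicate 2 with library totals, at a ratio of 0.824 (0.512 to 1.36, adjusted p = 0.464 by that exact test too). Both intervals hold 1 and that of Mir365-1 also reaches past 2-fold, so at this depth its counts leave room for both no difference and one of that size. The SD of the log2 ratio over the 305 tested genes was 1.25, and the log2 ratios of the 4 genes lay between -0.28 and 1.13.

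**Figure D2:**
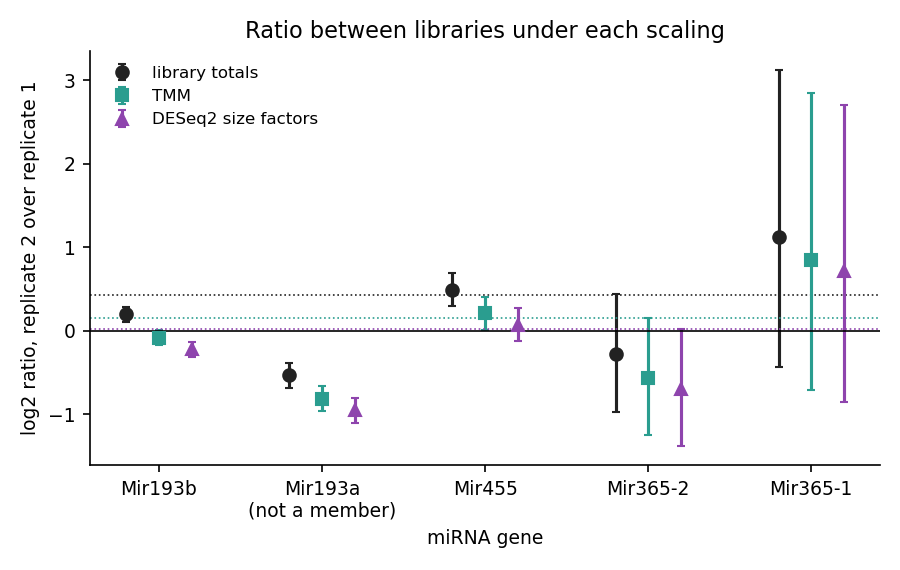
The plot gives the log2 ratio of replicate 2 over replicate 1 for each gene under library totals (black circles), TMM factors (green squares) and DESeq2 size factors (purple triangles), with bars for the exact 95% interval and dotted lines for the median of all tested genes under each scaling. Mir193b crosses from 0.20 to -0.08 and -0.22, Mir455 stays above 0, Mir193a (no member) stays below 0, and the bars of Mir365-2 and Mir365-1 are wide.

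Among all tested genes, the 4 lay within the main body of points. The tested genes closest to each of them were taken by Euclidean distance in log2(CPM + 1) over the 2 libraries, which describes level and ratio together and, with 2 points, no more. Nearest to Mir193b were Mir150 (distance 0.09; 1663 and 1746 CPM), Mir155 (0.26) and Mir320 (0.39). Mir150 and Mir155 are known from lymphocytes and other leukocytes. Nearest to Mir455 were Mir101a (0.05; 297 and 437 CPM), Mir1249 (0.22) and Mir574 (0.27). Nearest to Mir365-2 were Mir6516 (0.17), Mir183 (0.17) and Mir296 (0.18). Mir376b had the same counts as Mir365-1 in both libraries, 4 and 22, and Gm23450 and Mir1949 each differed from it by 1 count in replicate 2, so likeness at this depth carries little.

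**Figure D3:**
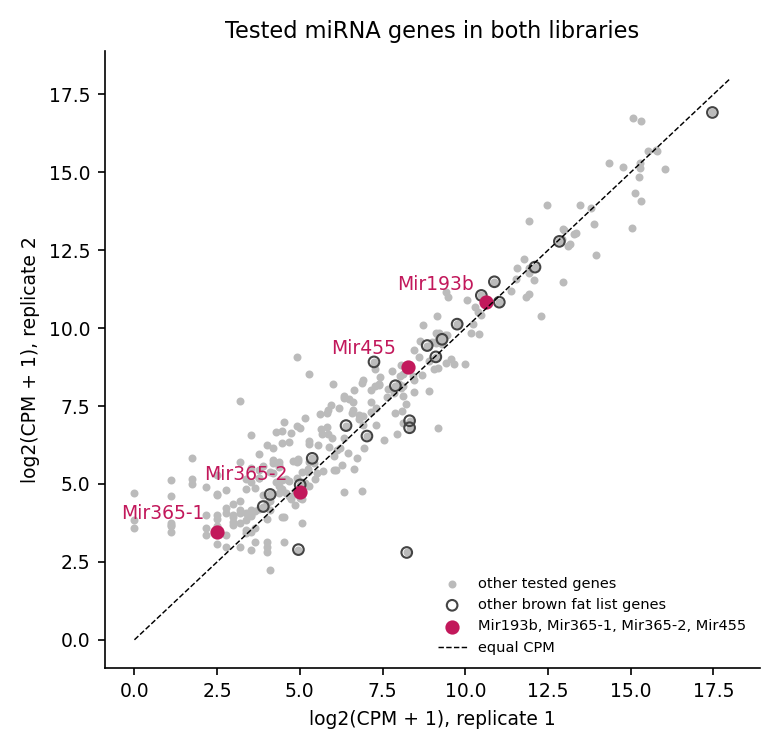
Each point is 1 of the 305 tested genes, with log2(CPM + 1) in replicate 1 on the horizontal axis and in replicate 2 on the vertical axis, and the dashed line marks equal CPM. Mir193b, Mir455, Mir365-2 and Mir365-1 (red) follow in descending order of level. The first 3 lie close to the line, and Mir365-1, at 4.62 and 10.1 CPM, lies above it. Open circles mark the other tested genes of the brown fat list.

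Within a library, the count of a gene can be set against that of its neighbour, which removes the library scaling. Mir193b exceeded Mir365-1, its neighbour on chromosome 16, by 344.5 to 1 in replicate 1 (exact interval 134 to 1266) and 181 to 1 in replicate 2 (119 to 289), a mean log2 ratio of 7.96 ± 0.66 (SD, n = 2). On chromosome 11, Mir193a exceeded Mir365-2 by 21.9 to 1 (14.9 to 33.4) and 18.3 to 1 (14.0 to 24.4), a mean log2 ratio of 4.32 ± 0.18 (SD, n = 2). At both loci the Mir193 gene had the higher count. Reads of miR-365-3p that enter no gene count would lower both ratios, so these ratios do not give the proportion of the mature molecules. Neither ratio was shown to differ between the libraries, by Fisher's exact test with Benjamini-Hochberg adjustment over the 5 pairs computed. The adjusted p was 0.336 for Mir193b to Mir365-1, where the odds ratio of replicate 2 over replicate 1 was 0.525 with an interval from 0.131 to 1.55. It was 0.485 for Mir193a to Mir365-2 by that exact test too, with an odds ratio of 0.839 (0.504 to 1.37).

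The genes that share the miR-193 seed did differ in their balance. Mir193a had 590 counts, or 682 CPM (628 to 739), in replicate 1 and 1027 counts, or 472 CPM (443 to 501), in replicate 2. It was lower in replicate 2 where Mir193b was slightly higher with library totals. Mir193b exceeded Mir193a by 2.34 to 1 in replicate 1 (2.12 to 2.58) and 3.87 to 1 in replicate 2 (3.61 to 4.15). The odds ratio was 1.66 (1.47 to 1.87, adjusted p = 7.75e-16 by Fisher's exact test over the same 5 pairs), which no scaling of the libraries can change. Mir193a itself was not called, at a ratio of 0.692 (0.625 to 0.767), and its log2 ratio of -0.53 stood at -0.97 relative to the median. The pairs across loci were chosen after their values were seen. As background, the log2 ratios of the 305 tested genes had an SD of 1.25, and 67.9% of these genes passed the adjusted p alone. A difference in balance is thus not shown to be particular to the pairs described here.

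The balance of Mir193b to Mir455 also differed. The odds ratio was 0.816 (0.700 to 0.949, adjusted p = 0.0182 by Fisher's exact test over the 5 pairs), so Mir455 gained slightly on Mir193b in replicate 2. For Mir365-2 to Mir365-1 the odds ratio was 0.380 with an interval from 0.0866 to 1.28 (adjusted p = 0.224 by that exact test too), too wide to show whether the copies kept their balance.

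**Figure D4:**
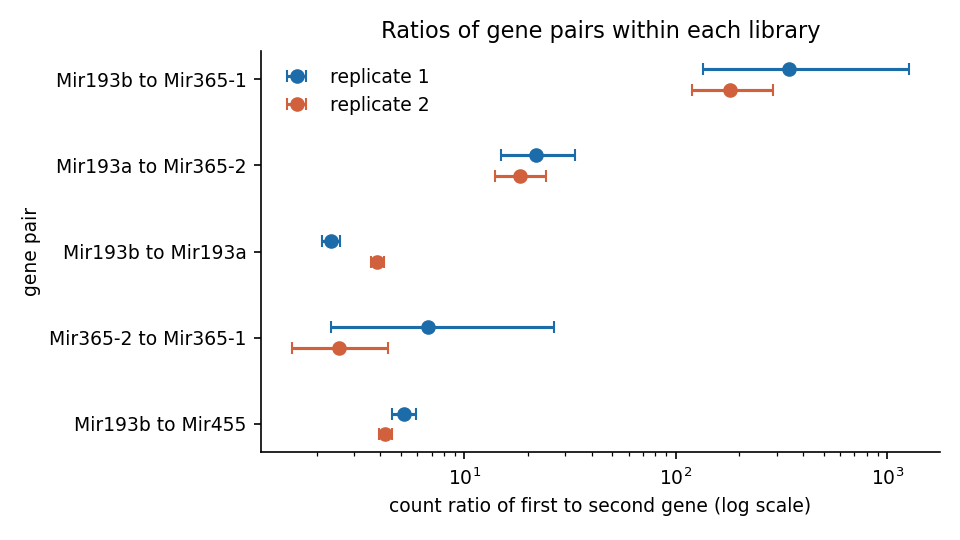
The plot gives the count ratio of the first to the second gene of each pair on a log axis in replicate 1 (blue) and replicate 2 (orange), with bars for the exact 95% interval. The ratio of Mir193b to Mir193a shifts from 2.34 to 3.87 with bars that do not overlap, while the bars of Mir193b to Mir365-1, Mir193a to Mir365-2 and Mir365-2 to Mir365-1 overlap.

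The wider list of miRNAs known to act in brown or beige fat held 23 further genes, 12 that promote the fate or its features and 11 that oppose it. All 23 had counts and 22 were tested. Of these, 1 was called higher in replicate 2, beside 26.9% of all tested genes, and 4 were called higher in replicate 1, beside 6.89%. With TMM factors these backgrounds were 21.6% and 10.5%, and with DESeq2 size factors 19.0% and 12.8%. The same 5 list genes were called under both. The median log2 ratio of the 22 genes was 0.12, against 0.43 over all tested genes. At least 18 bases in a row are shared with another annotated hairpin by 15 of the 23 genes, so their counts can be lower bounds.

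Among the 12 promoting genes, levels ran from Mir378a, which lies in the Ppargc1b gene, to Mir32 at 16.1 ± 3.19 CPM (SD, n = 2). Mir378a stood at 181375 and 123976 CPM, far above every other gene of the list. Mir196a-2, whose miRNA represses Hoxc8 in white fat precursors, stood at 4411 and 3976 CPM, and Mir328 at 1882 and 2870 CPM. Mir193b, at 1592 and 1827 CPM, thus ranked below these 3 genes of the promoting group and above the others by uniquely mapped counts. Several of the others, such as the Mir26a and Mir30c copies, share their mature reads between genes and could stand higher. Mir30c-2 stood at 629 and 797 CPM and Mir30b at 551 and 539 CPM, and their miRNAs are known to repress the corepressor RIP140. Mir455, at 307 and 432 CPM, lay below them.

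The 4 list genes called higher in replicate 1 were all of the promoting group, which held 12 tested genes. Of the 10 tested opposing genes, 0 were called in that direction. Over all tested genes the share was 6.89% with library totals, 10.5% with TMM and 12.8% with DESeq2 size factors. Both Mir26a copies are among the 4, so these are not 4 separate miRNAs. Mir26a-1 had 259 counts in replicate 1 and 13 in replicate 2, and Mir26a-2 had 275 and 241. Mir203 stood at 318 and 130 CPM, a ratio of 0.408 (exact interval 0.344 to 0.483). Mir196a-1 had 26 and 14 counts, while Mir196a-2, with 3817 and 8657, was not called. Mir26a-1 and Mir26a-2 share 25 bases, and Mir196a-1 and Mir196a-2 share 22, so reads common to each pair enter neither count. The part of these uncounted reads in the differences was not tested.

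Among the 11 opposing genes, Mir27b was the highest at 7351 and 7050 CPM, and Mir27a stood at 862 and 1118 CPM. Their miRNAs repress Prdm16 and Pparg, regulators of fat cell formation. Mir93, at 2087 and 1822 CPM, and Mir155, at 1432 and 2120 CPM, were close to Mir193b in level, and the miRNA of Mir155 represses Cebpb, a partner of Prdm16. Mir34a stood at 460 and 694 CPM. Mir106b was the 1 gene called higher in replicate 2, at 150 and 482 CPM, a ratio of 3.21 (exact interval 2.67 to 3.88).

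The Mir133 genes, which oppose the brown fat fate through Prdm16, had few unique counts. Mir133b stood at 40.4 and 55.6 CPM, Mir133a-1 at 16.2 and 24.3 CPM and Mir133a-2 at 2.31 and 5.05 CPM. Mir133a-1 and Mir133a-2 share a run of 31 bases, and Mir133b shares 21 with a Mir133a hairpin. Their levels are lower bounds as those of the Mir365 genes are, so Mir193b having more counts than Mir133b here does not give the balance of the mature miRNAs in this muscle.

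**Figure D5:**
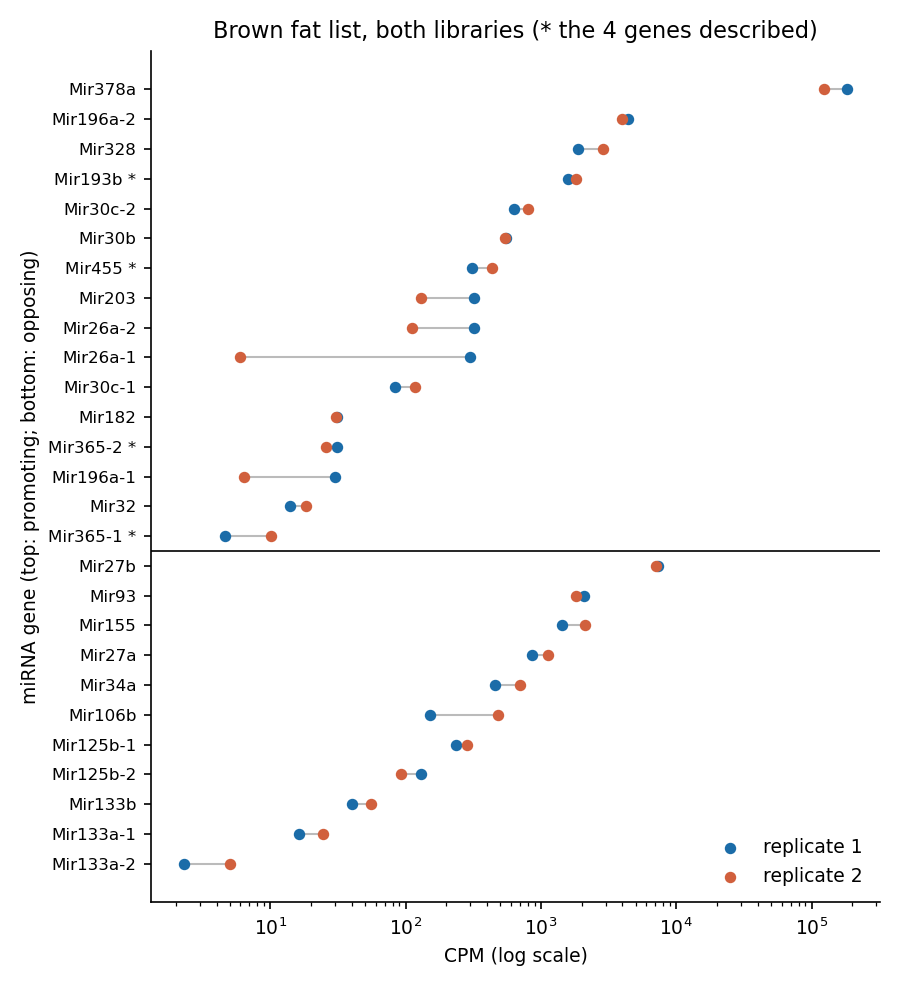
The plot gives the CPM of the brown fat list on a log axis in replicate 1 (blue) and replicate 2 (orange), joined by a grey line, with promoting genes above the black line and opposing genes below it, each in descending order of mean CPM. Mir193b and Mir455 (starred) lie in the upper part of the promoting genes, Mir365-2 and Mir365-1 (starred) in the lower part, and Mir26a-1 shows the widest gap, 299 against 5.97 CPM.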

How the data were processed

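The authors deposited raw read counts for each miRNA gene, not normalized, on the assembly mm10 and the GENCODE annotation M21 per the deposited README. Neither the aligner, the counter nor any adapter trimming is named in the sources used here. The 3 count columns have no header. From their values they are unstranded, sense and antisense, and the sense column was used. The 4 tallies (unmapped, multimapping, no feature, ambiguous) stayed out of library sizes and tests: unmapped reads were 5.10% and 8.17%, and reads outside miRNA genes 1.67% and 2.73%. CPM is counts per 1000000 gene counts. The exact binomial and Fisher tests and intervals used SciPy 1.17.1 in Python 3.11.15, and were tested on simulated counts. A quasi-likelihood test needs more than 1 library a side. TMM factors came from edgeR 4.0.16 and size factors from DESeq2 1.42.0 in R 4.3.3, over the 305 tested genes.

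Sequences came from RefSeq (GRCm38.p6): all 4 members had mature sequences, and 3 had hairpins (not Mir455). Shared runs were found by exact matching among GENCODE M21 hairpins. Named genes were the members, Mir193a, genes sharing a seed, the brown fat list and the 3 nearest genes per member. The members and lists were chosen with earlier results of these data known. Alternatives were the unstranded column, TMM, DESeq2 size factors, totals without the top gene, no filter, a mean of at least 100 counts, no ratio threshold and each library left out.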

Additional observations from a re-analysis of the deposited data

How the results depend on the processing

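No paired analysis was possible because the series holds 1 group. Mean levels rose where the totals shrink. With the unstranded column the means were 2221 CPM for Mir193b, 479 CPM for Mir455 and 37.2 CPM for Mir365-2. With the top gene, Mir378a, left out of the totals they were 2015 CPM for Mir193b and 33.7 CPM for Mir365-2. The log2 ratio of Mir193b turned from 0.20 to -0.084 with TMM and -0.22 with DESeq2 size factors (adjusted p = 4.02e-06 by the exact binomial test with the latter, and from 1.37e-05 to 0.0936 over the other alternatives). Without a ratio threshold, Mir193b (0.20) and Mir455 (0.49) passed, so 2 of 4 members were called in place of 0, and 17 in place of 5 of the 22 tested other list genes, beside 67.9% of all tested genes at that setting. The median of the other list genes turned from 0.12 to -0.17 with TMM, -0.30 with DESeq2 size factors and -0.032 with a mean of at least 100 counts. Mir365-1 and Mir365-2 could not be tested at that filter, as their means were 13 and 41.5 counts. Leaving out a library kept each member's level and both neighbour ratios within 1 SD of the mean, as it must with 2 libraries. Depth limits the Mir365 genes most, at 4 and 27 counts in replicate 1.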
